A study of Mus musculus with 7 samples.

Results

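The genes described here are 150 of the 29267 genes in 7 mouse RNA-Seq libraries, those whose RNA was most restricted to 2 of the libraries, mES GFP+ and 5C GFP+ (naive). They were chosen by their measured levels. A gene had to reach 10 TPM (a level corrected for gene length and scaled to the same sum in each library) in both of these libraries, which 8214 genes did. The genes were then ranked by a score, the smaller log2(TPM+1) of the pair minus the largest log2(TPM+1) of the other 5 libraries, and the 150 highest were taken. The levels in the pair against the other libraries are therefore a description of the choice and support nothing by themselves.

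The 6 OG2 libraries were made from mouse embryonic fibroblasts that carry a GFP reporter under the Oct4 promoter and distal enhancer and that had received retroviral Oct4, Sox2, Klf4 and c-Myc. The fibroblasts were reprogrammed in mES medium, which contains serum and LIF, or in 5C medium, a serum-free N2 medium with bFGF and LIF, and sorted by FACS at passage 0 into mES GFP+, mES GFP-, 5C GFP+ and 5C GFP- cells. 5C GFP+ cells were also converted in naive medium with LIF and inhibitors of MEK and GSK3, giving 5C GFP+ (naive), or in primed medium, giving 5C GFP+ (primed), both at passage 20. The cells of 5C GFP+ (primed) had lost GFP fluorescence in spite of the label. The remaining library, R1 ESC (primed), came from R1 mouse embryonic stem cells that were brought to primed culture, at passage 20. By the paper's methods, primed R1 cells were maintained with CHIR99021, a GSK3 inhibitor, and IWR-1 in place of bFGF and activin A. Each group is 1 library without replicates, so no test between conditions was possible, and the intervals below are exact 95% intervals of read sampling only. Nothing in the tables separates clones or cultures within a library.

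Naive pluripotency is the state of the inner cell mass before implantation, held in culture by LIF and Wnt activity with the MEK and ERK pathway blocked. Primed pluripotency is the state of the epiblast after implantation, held by FGF and activin. Naive cells have low DNA methylation, and their culture is known for RNA of germ cell and gamete genes that are methylated and silent in most somatic and primed cells.

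The total of expected counts ran from 6108252 in mES GFP+ to 11496615 in 5C GFP+ (primed), so that 3 counts on a member of median effective length were worth between 0.359 and 0.627 TPM. The 12 fibroblast markers, which the cell type label of the 6 OG2 libraries would call for, summed to 17.9 TPM in mES GFP+ and 18.01 TPM in 5C GFP+ (naive). The sum was as low in 5C GFP+, with 15.1 TPM, and 344, 661, 93.9 and 270 TPM in 5C GFP-, mES GFP-, 5C GFP+ (primed) and R1 ESC (primed). The 8 shared pluripotency markers were above 0 TPM in all 7 libraries, though Dppa4 had only 0.17 TPM in mES GFP-. Their median score was -1.54. Viral and endogenous RNA of Pou5f1 (Oct4) and Sox2, 2 of these markers, cannot be told apart. Of 15 feedback and immediate-early genes of ERK signalling, the higher of the pair was at least 2-fold below every other library for 8, beside 3.65% of the 17733 genes with at least 1 TPM in any library. Examples were Egr1 with 0.32 and 0.50 TPM and Dusp6 with 3.53 and 7.0 TPM, against at least 64.9 and 34.7 TPM elsewhere. For both genes, mES GFP+ was as low as 5C GFP+ (naive), which was kept with a MEK inhibitor. The labels name no such inhibitor for mES GFP+, and the reason for its low levels was not tested. Others of the 15 were not low, such as Etv5 with 213 and 192 TPM in the pair and 128 and 139 TPM in the primed libraries.

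The promoter windows of 4 members are printed as examples from the germ cell and early embryo groups and do not show the range of these groups. Dazl, Stk31 and Tex101 are silent in most tissues outside the germ line. Their windows had 28, 29 and 19 CpG, the dinucleotide that carries DNA methylation, and that of Pramel6, an early embryo gene, had 3. The median was 22 for genes with at least 10 TPM in the pair and 7 for all genes with a window. Over the windows of 15 autosomal germ cell and gamete genes among the members, CpG ran from 3 to 42 with a median of 16. Each window runs from 250 bases before to 50 bases after the RefSeq transcription start on the gene's strand in GRCm38.p6, with every CpG in capitals. They lie at chr17:50293571-50293870 on the minus strand for Dazl, chr6:49395289-49395588 on the plus strand for Stk31, chr7:24672001-24672300 on the minus strand for Tex101 and chr2:87506315-87506614 on the plus strand for Pramel6.
Dazl: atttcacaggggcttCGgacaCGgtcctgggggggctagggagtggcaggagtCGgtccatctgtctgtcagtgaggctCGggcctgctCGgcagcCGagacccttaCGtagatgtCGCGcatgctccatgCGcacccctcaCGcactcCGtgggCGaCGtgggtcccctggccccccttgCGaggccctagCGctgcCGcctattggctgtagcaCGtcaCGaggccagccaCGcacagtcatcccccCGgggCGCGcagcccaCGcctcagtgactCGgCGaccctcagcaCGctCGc
Stk31: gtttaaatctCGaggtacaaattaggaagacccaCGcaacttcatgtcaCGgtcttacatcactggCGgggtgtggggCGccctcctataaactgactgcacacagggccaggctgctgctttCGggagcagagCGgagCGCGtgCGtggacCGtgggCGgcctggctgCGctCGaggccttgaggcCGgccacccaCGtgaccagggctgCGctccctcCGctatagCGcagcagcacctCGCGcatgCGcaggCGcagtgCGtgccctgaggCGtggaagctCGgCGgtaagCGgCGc
Tex101: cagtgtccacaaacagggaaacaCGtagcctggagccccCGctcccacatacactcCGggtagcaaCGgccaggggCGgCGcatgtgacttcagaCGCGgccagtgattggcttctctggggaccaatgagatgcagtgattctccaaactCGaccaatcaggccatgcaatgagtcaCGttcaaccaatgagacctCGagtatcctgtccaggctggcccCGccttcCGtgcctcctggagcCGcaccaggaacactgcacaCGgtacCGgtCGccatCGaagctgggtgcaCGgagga
Pramel6: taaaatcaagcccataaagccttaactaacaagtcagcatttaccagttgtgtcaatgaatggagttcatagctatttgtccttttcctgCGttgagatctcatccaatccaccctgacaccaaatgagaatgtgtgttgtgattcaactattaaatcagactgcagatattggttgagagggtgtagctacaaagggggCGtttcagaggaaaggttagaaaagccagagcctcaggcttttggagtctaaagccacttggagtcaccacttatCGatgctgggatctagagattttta

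The score of the 150 members ran from 6.13 down to 1.78 with a median of 2.69, beside a median of -0.46 over all 8214 genes of at least 10 TPM in the pair. The last members inside the threshold were Slc6a7, Gm10778 and H2-Eb1, all at 1.78, and the nearest genes outside were Cpne5 at 1.76 and Smtnl2 and Aox3 at 1.74. H2-Eb1 had 13.2 and 29.2 TPM in the pair and at most 3.15 TPM elsewhere, and Cpne5 had 32.2 and 18.8 TPM and at most 4.82 TPM elsewhere. The boundary therefore fell in a continuous range of scores. Among the 8214 genes, 3.86% had a score of 1 or more, and 23.5% had a score of -1 or less.

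The highest score belonged to 1700013H16Rik, an X-linked gene (chromosome X, 53742901 to 53757831, GRCm38), with 336 TPM in mES GFP+ and 311 TPM in 5C GFP+ (naive). In the remaining libraries, given here and below in the order 5C GFP+, 5C GFP-, mES GFP-, 5C GFP+ (primed) and R1 ESC (primed), it had 0.61, 3.46, 0, 3.04 and 2.48 TPM. Srarp followed with 50.2 and 56.0 TPM in the pair and no count in any of the other 5. Against the level that 3 counts would give, Srarp was at least 88.6-fold higher in 5C GFP+ (naive) than in 5C GFP+. The other members without a count outside the pair were Khdc1a, Cyp2c70 and a gene known only as ENSMUSG00000094740. In all, 21 members had no more than 3 counts in each of the other 5 libraries.

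**Figure D1:**
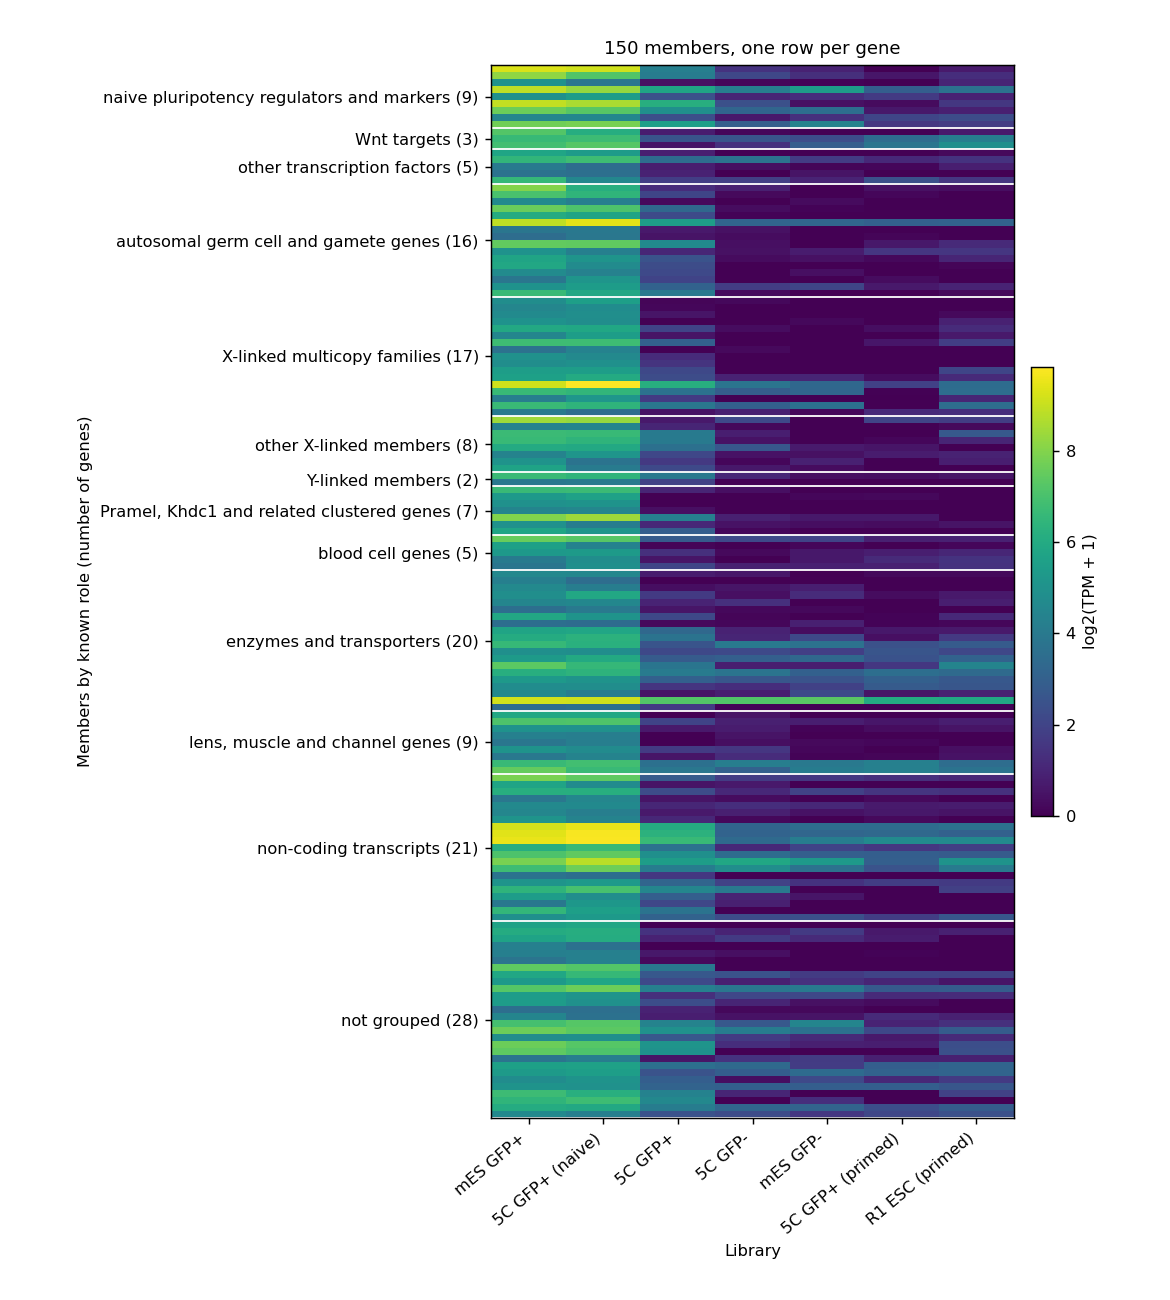
Heat map of log2(TPM+1) for the 150 members (rows, by known role with the number of genes) in the 7 libraries (columns, 1 library each). Both leftmost columns, mES GFP+ and 5C GFP+ (naive), are bright by the choice of members. The other 5 columns are dark by the same choice, and among them 5C GFP+ has the highest median, 3.38 TPM.

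The rule used only the smaller value of the pair, so which of the pair was higher was not fixed. The members had similar median levels in mES GFP+ and 5C GFP+ (naive), but singly they were less alike than the 8214 genes. The median was 45.3 TPM in mES GFP+ and 42.4 TPM in 5C GFP+ (naive), and 76 of 150 were higher in mES GFP+. The median difference, mES GFP+ minus 5C GFP+ (naive), was 0.0049 on the log2(TPM+1) scale, beside 0.10 over the 8214 genes. At least 2-fold higher in mES GFP+ were 10 members (6.67%), where the background was 6.27% of 14477 genes with at least 1 TPM in either library and 1.13% of the 8214 genes with at least 10 TPM in both. At least 2-fold higher in 5C GFP+ (naive) were 4 members (2.67%), against backgrounds of 2.49% and 0.743%. The direction of this split was not stable, since with median-ratio rescaling 6 members were higher in mES GFP+ and 8 in 5C GFP+ (naive). Within 1.5-fold were 109 members (72.7%) and 90.3% of the 8214 genes.

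The members that differed most within the pair had separate functions. Mlxipl, which encodes the glucose-responsive transcription factor ChREBP, had 92.1 TPM in mES GFP+ and 22.6 TPM in 5C GFP+ (naive), a ratio of 4.07 (95% interval 3.53 to 4.71). Aurkc, a meiotic aurora kinase, had 255 and 69.9 TPM, a ratio of 3.64 (3.18 to 4.19). Of the 75-base windows of Aurkc transcripts, 54.8% also occur in another gene, so its level is less certain. Csf3r, the G-CSF receptor, had 47.4 and 19.4 TPM, a ratio of 2.45 (2.06 to 2.92). Gm4779 and 8030474K03Rik, neighbours within 8.59 kb on chromosome X, were 3.17 and 2.61 times higher in mES GFP+. In the other direction, Zp3, a protein of the oocyte's zona pellucida, had 13.7 and 34.0 TPM, a ratio of 0.40 (0.29 to 0.54). Slc30a2, a zinc transporter, had a ratio of 0.48 (0.42 to 0.56), H2-Eb1 0.45 (0.32 to 0.63) and the non-coding Gm27253 0.40 (0.20 to 0.73), and these 4 are the members counted above. By read sampling alone, the interval of this ratio lay above 1 for 53 members, below 1 for 41 and included 1 for 56. No share over other genes was computed for these 3 counts, so they are not a result about the members. The spread between cultures is not covered by these intervals.

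**Figure D2:**
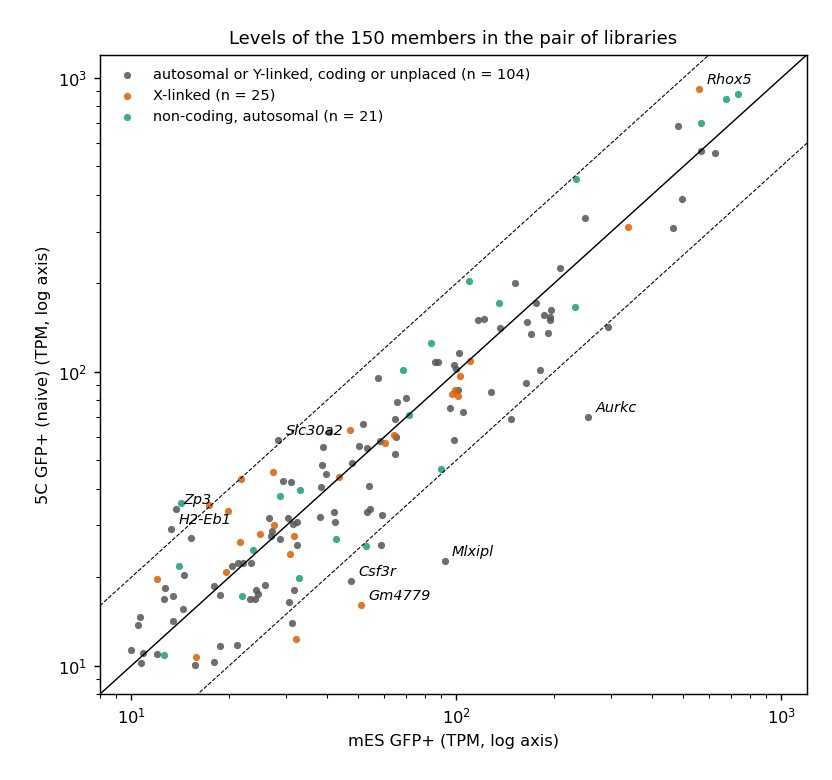
TPM of the 150 members in mES GFP+ (horizontal, log axis) and 5C GFP+ (naive) (vertical, log axis), 1 point per gene (orange X-linked, green non-coding, grey other), with the line of equal level and dashed lines at 2-fold. Most points lie between the dashed lines, and Mlxipl and Aurkc lie farthest below them.

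Among the other libraries, 5C GFP+ held the most RNA of the members. It was the highest of the 5 for 99 members (66.0%), beside 24.99% of the 8214 genes. The highest was 5C GFP- for 17 members (11.3%, beside 16.9% of the 8214 genes) and mES GFP- for 12 (8.0%, beside 24.5%). It was R1 ESC (primed) for 10 (6.67%, beside 18.0%) and 5C GFP+ (primed) for 8 (5.33%, beside 15.5%). The median level of the members was 3.38 TPM in 5C GFP+, 0.77 TPM in 5C GFP-, 0.39 TPM in mES GFP-, 0.26 TPM in 5C GFP+ (primed) and 0.86 TPM in R1 ESC (primed). No more than 3 counts were found for 24 members in 5C GFP+, 74 in 5C GFP- and 81 in mES GFP-. The number was 82 in 5C GFP+ (primed) and 66 in R1 ESC (primed). No share over other genes was computed for these counts, and the levels in all 5 libraries were capped by the choice of members. The 150 members made up 1.47% and 1.48% of all TPM in the pair, 0.157% in 5C GFP+ and from 0.0337% to 0.0595% in the other 4.

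The level in 5C GFP+ before conversion was a small and uneven share of that in 5C GFP+ (naive). Over the 150 members it had a median of 7.50%, with quartiles of 2.98% and 16.6% and a highest value of 27.7%, and it was under 1% for 17 members. In bulk RNA a smaller number of expressing cells and less RNA in each cell cannot be told apart. The naive regulators and markers had a median of 17.2%, and the non-coding transcripts had 9.31%. The X-linked multicopy families stood at 5.46%, the Pramel, Khdc1 and related genes at 1.51% and the Wnt targets at 1.05%. Where 5C GFP+ was the highest of the other 5 libraries, this share follows from the score that chose the members. The median score was 2.49 for the naive regulators and markers, 3.44 for the X-linked families and 4.01 for the Pramel and Khdc1 group, so the order of these groups is a description of the choice.

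**Figure D3:**
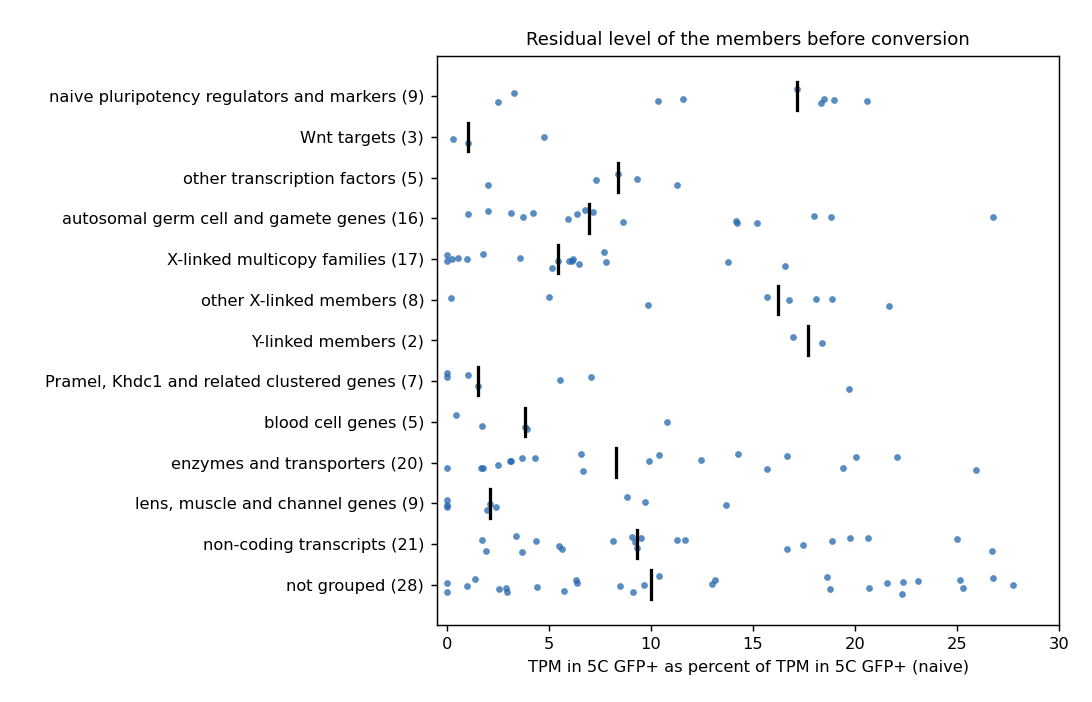
TPM in 5C GFP+ as a percentage of TPM in 5C GFP+ (naive), 1 point per member, by known role, with bars at the group medians and points spread vertically for visibility. The groups overlap, with medians from 1.05% for the 3 Wnt targets to 17.7% for the 2 Y-linked members.

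The 5C GFP+ cells were the source of both converted libraries. Of the 110 members with at least 1 TPM in 5C GFP+ or 5C GFP+ (primed), 79 were at least 2-fold higher in 5C GFP+ (71.8%), where 16.1% of all such genes were. At least 2-fold lower were 3 members (2.73%), 1700013H16Rik, Ggt1 and Sp5, beside 13.7% of all genes. These backgrounds were not limited to genes with at least 10 TPM in the pair. With that limit, the median log2(TPM+1) difference, 5C GFP+ minus 5C GFP+ (primed), was 1.16 for the members and 0 for all genes. The 79 were 52.7% of all 150 members. Of 126 members with more than 3 counts in 5C GFP+, 59 had no more than 3 counts in 5C GFP+ (primed). No share over other genes was computed for this count. The higher level after conversion in naive medium was fixed by the choice of members, and the level in both 5C GFP+ and 5C GFP+ (primed) was capped by it.

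The sorted fractions of 5C medium also differed. Of 111 members with at least 1 TPM in either, 67 were at least 2-fold higher in 5C GFP+ than in 5C GFP- (60.4%), where 8.45% of all such genes were. At least 2-fold lower were 2 members, 1700013H16Rik and Cdo1 (1.8%), against 22.6% of all genes. Unlike the members, these background genes did not have to reach 10 TPM in the pair. With that minimum, the median log2(TPM+1) difference, 5C GFP+ minus 5C GFP-, was 0.82 for the members and -0.021 for all genes. The 67 were 44.7% of all 150 members. How far that minimum accounts for the contrast with 8.45% was not tested.

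The primed libraries were both low in the members, with a difference in 1 direction. Of 71 members with at least 1 TPM in R1 ESC (primed) or 5C GFP+ (primed), 19 were at least 2-fold higher in R1 ESC (primed) (26.8%), beside 5.09% of all such genes, and 0 were at least 2-fold lower, beside 2.3%. These backgrounds were not limited to genes with at least 10 TPM in the pair. With that limit, the median log2(TPM+1) difference, R1 ESC (primed) minus 5C GFP+ (primed), was 0.071 for the members and 0.023 for all genes. The 19 were 12.7% of all 150 members. Pla2g1b, a secreted phospholipase, had 20.9 TPM in R1 ESC (primed) and 2.03 TPM in 5C GFP+ (primed). Xlr3a had 10.5 and 0.03 TPM, and Xlr3b 10.3 and 0 TPM, in the same order. Their neighbours Xlr3c, Xlr4a and Xlr5c were also among the 19. These Xlr copies had from 33.9% to 76.6% of their 75-base windows in other genes, whereas Pla2g1b and Fmr1nb had none. The split of reads between such copies was an estimate, so they were not independent in the count of 19. Fmr1nb, an X-linked gene expressed in testis, had 5.73 and 0 TPM. The 12 fibroblast markers were also higher in R1 ESC (primed), with a sum of 270 TPM against 93.9 TPM, and their part in this difference was not tested. The cell line and the way each culture was derived cannot be told apart.

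The naive transcription factors as a list were mostly not restricted to the pair. Of 22 listed factors all reached 10 TPM in both libraries, with a median score of -0.15. Only Tfcp2l1 was a member, where 1.83% of the 8214 genes were. Tfcp2l1, a factor that sustains naive self-renewal, had 194 and 153 TPM in the pair and 29.1, 8.24, 10.9, 0.54 and 0.82 TPM in the other libraries, highest in 5C GFP+ and near 0 in both primed libraries. Its level in 5C GFP+ (naive) was 5.28 times that in 5C GFP+ (4.99 to 5.59). Esrrb, a listed factor that was not a member, showed the other pattern, with 246 and 207 TPM in the pair and 230 TPM in 5C GFP+.

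The other markers of naive cells among the members varied in the libraries outside the pair. Dppa3 (Stella), a maternal factor of the early embryo, had 494 and 388 TPM in the pair and 71.2, 4.32, 0.37, 0.21 and 2.05 TPM elsewhere. Its level was 5.45 times higher in 5C GFP+ (naive) than in 5C GFP+ (4.82 to 6.19). Crxos, a homeobox gene, had 625 and 557 TPM and 18.2, 1.72, 0.91, 0 and 0.64 TPM elsewhere, a steeper step of 30.7 times over 5C GFP+ (24.8 to 38.3). Steps over 5C GFP+ were part of what the score selected and describe the choice. Alpl, the alkaline phosphatase used to stain pluripotent colonies, had 463 and 308 TPM in the pair and 52.9, 17.4, 41.8, 6.62 and 11.96 TPM elsewhere. Calcoco2, an autophagy receptor, had 293 and 142 TPM and at most 16.4 TPM elsewhere. Apobec2, a member of the cytidine deaminase family, had 22.04 and 22.4 TPM in the pair and 4.13, 0.61, 1.58, 3.19 and 3.86 TPM elsewhere, close to level between 5C GFP+ and the primed libraries. Nlrp4c, of a family expressed in oocytes, had 31.2 and 13.9 TPM in the pair and was highest elsewhere in R1 ESC (primed), with 1.0 TPM against 0.35 TPM in 5C GFP+. Of the 23 listed naive surface and other markers that were found in the tables, 4 were members, beside 1.83% of the 8214 genes. For 5, both libraries of the pair were at least 2-fold above all others, as for 3.08% of the 17733 genes. These markers were listed with earlier results of these data known, so the counts are a description.

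Axin2 and Sp5, both Wnt targets, had their highest levels outside the pair in the primed libraries. Of 13 listed targets, 8 reached 10 TPM in both libraries of the pair. Of these, 3 were members, beside 1.83% of the 8214 genes. Of the 13, 5 had both libraries of the pair at least 2-fold above all others, as 3.08% of the 17733 genes did. The list of targets was chosen with earlier results of these data known, and its counts are a description. Axin2, a scaffold that feeds back on Wnt signalling, had 98.3 and 105 TPM in the pair and 4.98, 5.00, 3.99, 10.01 and 17.6 TPM elsewhere. Sp5, a zinc finger factor induced by Wnt, had 117 and 150 TPM and 0.43, 1.62, 6.71, 13.2 and 28.9 TPM elsewhere. Both were higher in the primed libraries than in any passage 0 library of the other 5. Primed R1 cells were maintained with the GSK3 inhibitor CHIR99021 and with IWR-1, and the part of these compounds was not tested. Cdx1, a caudal homeobox factor, had 148 and 69.3 TPM and 0.73, 0.14, 0, 0 and 0.62 TPM elsewhere. Its levels outside the pair rest on 7 counts in 5C GFP+ and 4 in R1 ESC (primed), too few to order these libraries. The step from 5C GFP+ to 5C GFP+ (naive) was 21.1 times for Axin2 (17.3 to 26.2) and 348 times for Sp5 (148 to 1068). Lef1 and Tcf7, mediators of Wnt signalling, were not restricted, with 31.2 and 66.4 TPM in 5C GFP+ against 45.7 and 55.8 TPM in 5C GFP+ (naive). The listed targets T and Lgr5 were far higher in 5C GFP+ (primed) and R1 ESC (primed) than in the pair. T had 6.93 and 14.5 TPM in the pair and 155 and 374 TPM in the primed libraries. Lgr5 had 0.58 and 0.05 TPM in the pair and 33.1 and 19.7 TPM in the primed libraries.

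Most listed germ cell genes that reached 10 TPM in the pair were members. Of 41 listed germline genes found in the tables, 11 reached 10 TPM in both libraries of the pair and 10 of these were members, beside 1.83% of the 8214 genes. The list was chosen with earlier results of these data known, and its count is a description. The other was Tdrd12, with 110 and 111 TPM in the pair and 34.0 TPM in 5C GFP+. Dazl, an RNA-binding protein of germ cells (chromosome 17, 50279395 to 50293636), had 191 and 135 TPM in the pair and 9.10, 0.24, 0.08, 0 and 0 TPM elsewhere. Stk31, a protein of the germ line with a kinase domain, had 64.6 and 52.5 TPM and 3.76, 0.08, 0, 0 and 0 TPM elsewhere. Both were thus detected in 5C GFP+ and at or near 0 in the other 4 libraries. Hormad1, a protein of the meiotic chromosome axis, had 98.4 and 58.5 TPM and 15.7, 0.21, 0, 0 and 0.19 TPM elsewhere. Tex101, a surface protein of germ cells, had 24.5 and 17.5 TPM and 0.18, 0, 0.23, 0 and 0 TPM elsewhere. With 1 count in 5C GFP+, its ratio of 5C GFP+ (naive) to 5C GFP+ was 97.2 with a counting interval from 17.1 to 3914.

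The autosomal germ cell and gamete genes among the members numbered 16, grouped by their known function after the values had been seen. For 14 of them the highest of the other libraries was 5C GFP+, and for 13 mES GFP- held no more than 3 counts. Fkbp6, a factor of the piRNA pathway, had 128 and 85.4 TPM in the pair and 3.18 TPM in 5C GFP+. Sohlh2, a transcription factor of early germ cells, had 58.6 and 25.7 TPM in the pair, and Nanos3, which primordial germ cells require, had 31.6 and 18.1 TPM. Rnf17, a tudor protein of the germ line, had 53.1 and 33.4 TPM, and Syce1, a protein of the synaptonemal complex, had 25.7 and 18.8 TPM. The median difference of the 16 between mES GFP+ and 5C GFP+ (naive) was 0.45 on the log2(TPM+1) scale. Tcte2, with 480 and 686 TPM, was the most abundant. The germ cell genes Ddx4, Mael, Sycp3 and Piwil2 were not members, with at most 10.1 TPM in the pair, and Mael, Sycp3 and Piwil2 were higher in 5C GFP+ than in either library of the pair.

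Chromosome X held 25 of the 150 members (16.7%) and 3.14% of the 8214 genes, and no autosome held more than 10.7% of the members. Of the 25, 17 belonged to the Magea, Rhox and Xlr families, clustered multicopy genes expressed in testis. In 1 stretch 10 members lay within 259 kb of chromosome X, 73033981 to 73292976, and were Pnma5 and all 9 members of the Xlr3, Xlr4 and Xlr5 groups. All 10 genes with at least 10 TPM in the pair in that stretch were members. Magea8, Magea2 and Magea5 lay within 108 kb of each other at 154985775 to 155093666.

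Rhox5, a homeobox gene of the X-linked Rhox cluster, had 559 and 913 TPM in the pair, the latter the highest level of any member. It had 71.3, 12.9, 8.81, 2.69 and 10.1 TPM elsewhere, so that every library had some RNA of it. Rhox2a had 24.9 and 27.97 TPM and Rhox13 had 30.7 and 24.0 TPM in the pair, with at most 0.49 and 1.31 TPM elsewhere. Magea4, a cancer-testis gene, had 27.5 and 30.01 TPM in the pair and 1.8, 0, 0, 0 and 0 TPM elsewhere. Xlr3c had 110 and 109 TPM in the pair and 7.01, 0, 0, 0.52 and 2.58 TPM elsewhere. Xlr3a had 99.2 and 86.8 TPM in the pair and 11.96, 6.43, 8.61, 0.03 and 10.5 TPM elsewhere. Both copies of Xlr3 were thus lower in 5C GFP+ (primed) than in R1 ESC (primed).

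The reads of these families can be shared. Among 146 members with a transcript in GENCODE M21, 37 had at least 10% of their 75-base windows in a transcript of another gene, and 12 had at least 50%. The share was 85.3% for Xlr5b, 80.4% for Xlr5a, 81.7% for Rhox2a, 59.5% for Xlr3c and 33.9% for Xlr3a. It was 48.4% for Magea2, and the partners were other copies of the same families. The assignment of reads between such copies was an estimate of RSEM, so the level of a family is firmer than that of 1 copy.

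**Figure D4:**
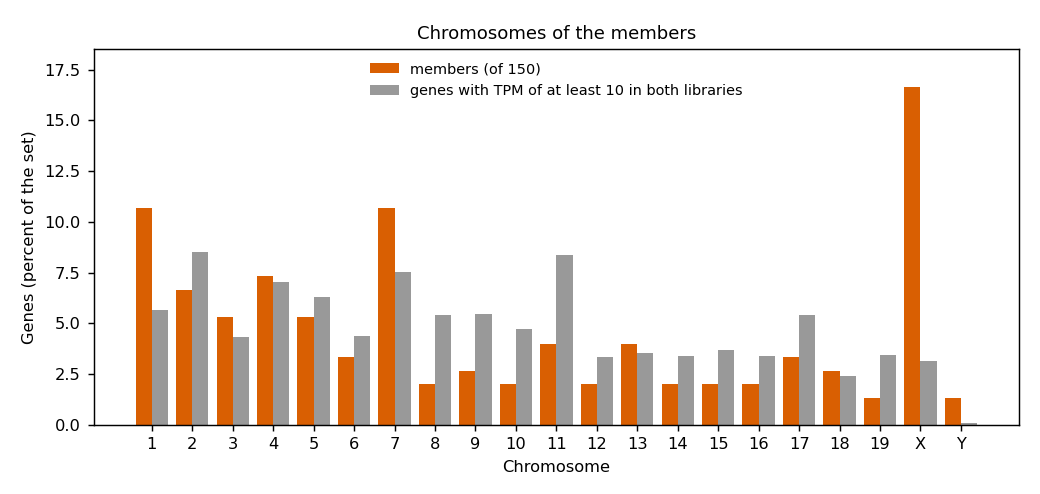
Percentage of the 150 members and of the 8214 genes with at least 10 TPM in both libraries of the pair that lie on each chromosome, by GENCODE M21. Chromosome X holds 16.7% of the members and 3.14% of the larger set, and 4 members without a position are not drawn.

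Uba1y and Zfy1 were Y-linked, and other Y-linked genes were present in every library. Uba1y, a ubiquitin-activating enzyme active in the male germ line, had 101 and 86.6 TPM in the pair and 14.7, 1.16, 0.33, 0.28 and 0.46 TPM elsewhere. Zfy1, a zinc finger gene of the testis, had 14.4 and 15.6 TPM and 2.86, 0, 0, 0 and 0 TPM elsewhere. Eif2s3y, which many tissues express, ranged from 37.8 to 102 TPM over the 7 libraries, and Ddx3y from 15.5 to 36.6 TPM. In the reference, 42.0% of the windows of Uba1y and 34.8% of those of Zfy1 also stood in another gene.

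Genes of the early embryo and oocyte made up a further set. Pramel6, of a family expressed in the preimplantation embryo (chromosome 2, 87506565 to 87510872), had 100 and 102 TPM in the pair and 1.04, 0.32, 0, 0 and 0 TPM elsewhere. Its ratio of 5C GFP+ (naive) to 5C GFP+ was 98.4 (41.8 to 303). Pramel7, its neighbour, had 30.6 and 16.4 TPM and at most 1.16 TPM elsewhere. Obox6, an oocyte homeobox gene, had 53.9 and 41.0 TPM and at most 0.83 TPM elsewhere, and Khdc1a and Khdc1c had 30.4 and 38.7 TPM in mES GFP+. The 2-cell genes Zscan4c and Zscan4f were not members, with 2.66 and 6.54 TPM in mES GFP+ and 0.29 and 1.05 TPM in 5C GFP+ (naive). Of 25 listed genes found for the 2-cell stage and the Pramel family, 5 reached 10 TPM in the pair. Of these, 3 were members, beside 1.83% of the 8214 genes. This list was also chosen with earlier results of these data known, and its count is a description.

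Non-coding transcripts were common among the members. Of the 150, 14 (9.33%) were annotated as lincRNA, beside 1.24% of the 8214 genes, and 83.3% were protein coding, beside 96.1%. In all, 21 members had a non-coding or unresolved annotation, and for 16 of them 5C GFP+ was the highest of the other libraries. Platr15 and Platr13, transcripts associated with pluripotency, were the most abundant, with 737 and 674 TPM in mES GFP+ and 879 and 845 TPM in 5C GFP+ (naive). Platr13 had 78.7, 7.77, 8.43, 8.95 and 7.41 TPM elsewhere, a ratio of 10.7 between 5C GFP+ (naive) and 5C GFP+ (9.02 to 13.0). Gm37381 had 567 and 700 TPM in the pair and 64.5, 8.23, 10.4, 10.01 and 11.9 TPM elsewhere. Both were lower in 5C GFP+ than in the pair and lower still, at similar levels, in the remaining 4 libraries. For 1700110I01Rik, with 234 and 452 TPM in the pair and 56.4 TPM in 5C GFP-, 94.2% of the windows were shared with other genes.

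A set of 5 members is known from blood cells. Cd84, an adhesion receptor of leukocytes, had 186 and 156 TPM in the pair and 5.99, 3.55, 2.96, 0.84 and 0.87 TPM elsewhere. Csf3r had 0.09, 0, 0.13, 0 and 0.12 TPM outside the pair. Nckap1l, the haematopoietic Hem1 protein, had 38.2 and 40.5 TPM, Fcgr3, an Fc receptor, 15.2 and 27.1 TPM, and H2-Eb1, a class II antigen-presenting chain, the values given above. Defining markers of blood cells were mostly at or near 0. Ptprc (CD45), Lyz2 and Cd14 were at 0 TPM in both libraries of the pair, and 8 such markers summed to 9.19 and 7.27 TPM there and to between 1.07 and 20.01 TPM in the other libraries. Cd3e, a T cell receptor chain, made up most of the sum in the pair, with 5.73 and 4.97 TPM.

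Another 20 members were enzymes or transporters. Nnmt, which methylates nicotinamide, was the only member among 22 listed genes of amino acid, one-carbon and lipid metabolism, with 24.0 and 16.8 TPM in the pair and 0.28, 0.48, 0.76, 0 and 0 TPM elsewhere. Marc2, a molybdenum-containing reductase, was the most abundant of them, with 566 and 562 TPM in the pair and 146, 144, 158, 64.2 and 58.8 TPM elsewhere. Lpl, the lipoprotein lipase, had 40.5 and 62.4 TPM in the pair and 6.16, 6.98, 8.79, 4.55 and 7.47 TPM elsewhere. Cdo1, cysteine dioxygenase, had 95.9 and 75.1 TPM and 4.93, 14.8, 12.1, 4.47 and 6.07 TPM elsewhere. Abcb1a, a drug efflux pump, had 65.5 and 79.2 TPM in the pair and at most 12.4 TPM elsewhere.

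A set of 9 members is known from lens, muscle or sensory cells. The lens crystallins Crygd and Cryge had 58.3 and 18.7 TPM in mES GFP+, 58.1 and 17.4 TPM in 5C GFP+ (naive) and no more than 0.43 TPM elsewhere. They share 23.0% and 32.5% of their windows with other crystallin genes. Akr1cl lies beside them on chromosome 1 and was also a member, with 23.4 and 22.3 TPM. Trpm1, a cation channel of retina and melanocytes, had 137 and 141 TPM and 2.94, 0.83, 0.76, 0.50 and 0.78 TPM elsewhere. Tnni3, cardiac troponin I, had 102 and 116 TPM in the pair and 11.3, 17.6, 14.6, 18.2 and 10.5 TPM elsewhere, a nearly flat level outside the pair. Cox7a1, a muscle subunit of cytochrome c oxidase, had 181 and 101 TPM in the pair and between 7.26 and 18.6 TPM elsewhere.

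**Figure D5:**
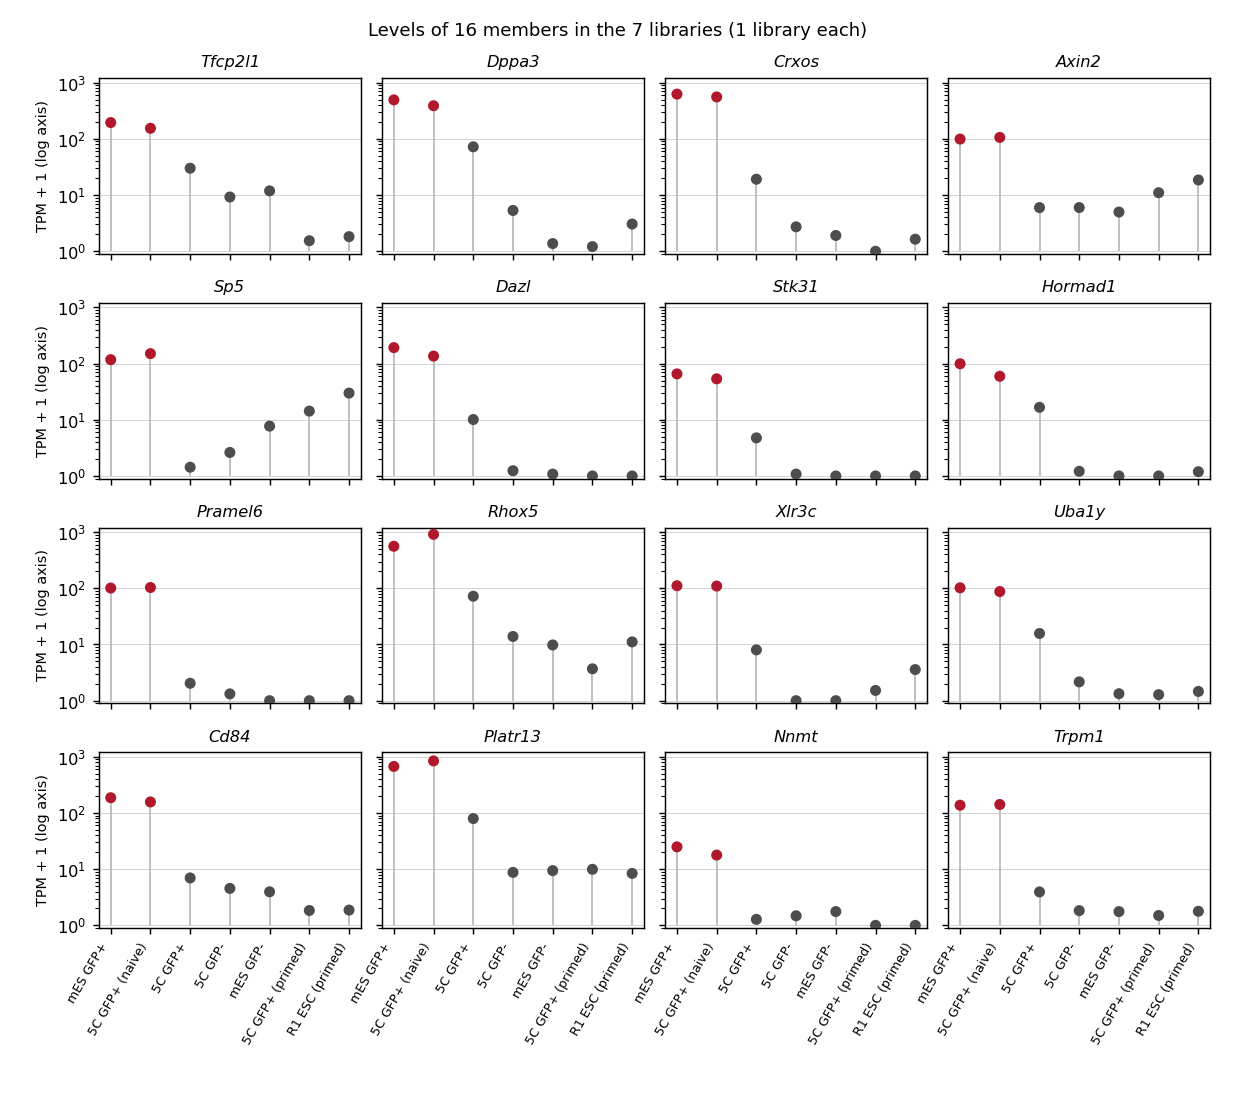
TPM + 1 (log axis) of 16 members in the 7 libraries, 1 library each, with mES GFP+ and 5C GFP+ (naive) in red and the other 5 in grey. Dppa3, Dazl and Platr13 have an intermediate point in 5C GFP+, and Axin2 and Sp5 have their highest grey points in the primed libraries.

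Some members were neighbours in the genome. Within 200 kb of another member were 46 of the 150, in 17 groups, a count for which no share over other genes was computed. Besides the X-linked groups, these included Zfy1 with Uba1y, Pramel6 with Pramel7, Obox6 with Crxos, Khdc1a with Khdc1c, Tex101 with Ceacam10, Slc6a7 with Cdx1, and Mlxipl with Fkbp6. In the stretch from Mlxipl to Fkbp6 on chromosome 5, 2 of the 5 genes with at least 10 TPM in the pair were members. Pairs such as Tex101 with Ceacam10 encode unrelated proteins, whereas the Khdc1 and Pramel pairs are related genes.

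A RefSeq window of 300 bases was found for 108 members, with a median of 7.5 CpG, beside 22 for 6470 windows of genes with at least 10 TPM in the pair and 7 for all 27025 genes in the table. At least 10 CpG were found in 41.7% of the members' windows, 88.3% of those of genes with at least 10 TPM in the pair and 43.9% of all. The groups differed, with medians of 16 for 15 autosomal germ cell and gamete genes and 7 for 17 genes of the X-linked families. Tex101 had 19 CpG, Dazl 28, Stk31 29 and Tcte2 42, whereas Pramel6 had 3 and Crxos 2. Tfcp2l1 had 21 and Axin2 31.

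Short motifs were searched on both strands of these windows. Shares are given for the 108 members' windows, then the 6470 windows of genes with at least 10 TPM in the pair, then all windows. CCACACCC, a KLF site, stood in 5 members' windows (4.63%, 3.66% and 3.57%). TCAAGGTCA, an ESRRB site, stood in 1 (0.926%, 0.278% and 0.407%). TTCCNGGAA, a STAT site, stood in 3 (2.78%, 1.27% and 1.15%), and ATGCAAAT, the octamer, in 1 (0.926%, 1.30% and 1.75%). TATAAA stood in 7 (6.48%, 6.06% and 14.2%), a share near that of the genes at the same level. TCACGTGA, an E-box found at germline genes, stood in 0 (beside 2.36% and 1.01%), which says only that these letters were not in these windows. Each count rests on 7 windows or fewer, and a match is a description of sequence only. No motif searched contains another.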

How the data were processed

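RNA of 7 libraries, 1 per group, was prepared with an Illumina TruSeq kit, sequenced on a MiSeq and processed by the authors with RSEM, with Bowtie and mm10 named in the submitters' processing notes. Versions are not given in the sources used here. Expected counts, as deposited, estimate the reads of each Ensembl gene and are not normalized. The authors' TPM divides these by effective length and scales each library to the same sum, and the deposited FPKM scales them by mapped fragments. TPM was the main value and FPKM an alternative.

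The members were found again from the TPM with a pseudocount of 1, and the members, gene lists and role groups were chosen with earlier results of these data known. Genes named were the 12 of highest score, those in lists, extremes of the pair, the highest in each other library, threshold neighbours, genomic neighbours and the 5 most abundant, with others of the role groups named after their values were seen. A comparison of protein identity was not run. The values of 1 member are not reported here. Counts at 2-fold used log2(TPM+1) among genes with at least 1 TPM in either library. Ratios carry exact Clopper-Pearson 95% intervals, for which the estimated counts were rounded, and these cover counting error only, as reads are not independent molecules. For ratios of 5C GFP+ (naive) to a library outside the pair, the intervals do not allow for the choice of members. The floor for an undetected gene is 3 counts. RSEM cannot separate viral from endogenous Oct4, Sox2, Klf4 and c-Myc, none of which is a member.

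Coordinates and biotypes came from GENCODE M21 (GRCm38), which matched 146 members by Ensembl identifier, and promoters from RefSeq (GRCm38.p6), matched by symbol. The score and interval were tested on simulated data. Tables were handled with pandas 2.3.3 on Python 3.11.15, intervals came from scipy 1.17.1, and plots from matplotlib 3.10.9. The alternatives were another pseudocount, unit, minimum, scaling, floor and set of libraries, and, chosen after seeing the data, leaving out members with shared reads.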

Additional observations from a re-analysis of the deposited data

Results flagged for a closer look

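A pair of members had opposite orders of GFP+ and GFP- cells in the 2 media at 2-fold or more. 1700013H16Rik had 336 TPM in mES GFP+ and 0 TPM in mES GFP-, an order fixed by the choice of members. In 5C medium it had 0.61 TPM in GFP+ and 3.46 TPM in GFP- cells, a difference of -1.47 on the log2(TPM+1) scale. Cdo1 had 95.9 and 12.1 TPM in mES medium and 4.93 and 14.8 TPM in 5C medium, a difference of -1.41 in the latter. With 1 library each, the difference between the media was not tested.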

How the results depend on the processing

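Of 74 recomputed counts, 65 stayed within 1.5 times of the value reported. The list itself kept 148 of its 150 genes with a pseudocount of 0.1, 144 with median-ratio rescaling, 117 with FPKM, 119 with a minimum of 5 TPM and 108 with a minimum of 20 TPM. It kept between 137 and 145 genes when mES GFP-, 5C GFP-, 5C GFP+ (primed) or R1 ESC (primed) was ignored, and 80 when 5C GFP+ was ignored. The count of members at least 2-fold higher in mES GFP+ fell from 10 to 6 with rescaling. That of members at least 2-fold higher in 5C GFP+ (naive) went from 4 to 8 with rescaling, 2 with a minimum of 5 TPM and 1 with a minimum of 20 TPM. The 3 members at least 2-fold lower in 5C GFP+ than in 5C GFP+ (primed) became 7 with a pseudocount of 0.1, 1 with a minimum of 5 TPM and 6 with a minimum of 20 TPM. With a floor of 10 counts, 54 members in place of 24 were below it in 5C GFP+. The cause of these shifts was not tested. The 79 members at least 2-fold higher in 5C GFP+ than in 5C GFP+ (primed) ranged from 55, among the 109 members with under 10% of windows shared (a setting chosen after seeing the data), to 106 with a pseudocount of 0.1. No paired analysis was possible because each group is 1 library and no result comes from a test.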

Other observations

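Several listed genes had the members' pattern below the minimum level. Rhox1, a homeobox gene of the Rhox cluster, had 15.2 TPM in mES GFP+, 7.32 TPM in 5C GFP+ (naive), 0.65 TPM in 5C GFP+ and 0 TPM elsewhere. Asz1, a germ cell gene of the piRNA pathway, had 6.66 and 3.82 TPM in the pair and at most 0.21 TPM elsewhere. Pramef17 had 9.47 and 4.74 TPM in the pair and at most 0.49 TPM elsewhere. Stra8, which germ cells need for meiosis, set the pair apart, with 306 TPM in mES GFP+, 4.67 TPM in 5C GFP+ (naive) and at most 0.33 TPM in the other libraries.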
